A study of Mus musculus with 28 samples.

Results

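Transcripts of 31 mouse genes of the pluripotency network were measured by RNA sequencing in 12 libraries of fibroblasts undergoing reprogramming and in 6 libraries of induced pluripotent stem cells (iPSC). The genes were taken by symbol from a list of 31, and all 31 were found in both deposited tables, of 54109 and 54838 gene identifiers. By role, 16 encode transcription factors or other DNA-associated regulators, 4 are Dppa genes, and 5 encode secreted or intracellular signalling proteins. The other 6 encode RNA-binding proteins, a ubiquitin ligase subunit or a DNA replication and repair factor. The series holds 28 samples, of which 10 samples of H3K9me2 chromatin immunoprecipitation were not analysed here.

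In each reprogramming group 3 libraries were made. The 4 groups received doxycycline (DOX) at 1 µg/ml with 3C and UNC, with 3C, with UNC, or alone. UNC is UNC0638, given at 1 µM, which blocks EHMT1 and EHMT2, the enzymes that place H3K9me2. 3C is a mixture of 250 nM of TGF-b RI Kinase Inhibitor II, L-ascorbic acid (50 µg/ml) and CHIR99021 (3 µM), which inhibits GSK3. DOX switched on the reprogramming factors in every one of these groups, so none of the 12 libraries is of untreated fibroblasts. All cells were embryonic fibroblasts heterozygous for Rosa26-rtTA and Oct4-GFP. They carried either 1 DOX-inducible OKSM allele, encoding Oct4, Klf4, Sox2 and c-Myc, or 2 copies of an inducible OKS allele without c-Myc, and which libraries had which was not given. They were seeded on irradiated feeder cells, whose RNA is counted with theirs. The 6 iPSC libraries came from 3 samples reprogrammed with UNC for the first 48 hours and 3 reprogrammed with DMSO, its solvent. The labels name no harvest time for the 12 libraries. They also do not say that replicates came from different cultures or embryos, so p-values measure only the spread between these libraries, which may be technical.

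In mouse pluripotent cells OCT4, SOX2, NANOG and a surrounding set of factors such as ESRRB, TFCP2L1, KLF2 and TBX3 bind each other's genes and keep one another active. LIF, acting through STAT3, and Wnt, acting through beta-catenin, feed this network from outside, with Tfcp2l1 known as a target of LIF and STAT3 and as a gene de-repressed when GSK3 is inhibited. During reprogramming most of these genes are silent in fibroblasts and are switched on late, with Nanog, Esrrb, Dppa genes and Utf1 widely used as signs that cells have arrived.

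The sequences upstream of 3 members are shown because the results turn on these genes: of the members tested, Tfcp2l1 was raised most and Fgf4 lowered most by 3C, while Nanog, the best known of the network, had only a few reads in every reprogramming library. Each is the 250 bases before the start given in RefSeq's promoter table for GRCm38.p6 (mm10), on the plus strand, and the table held 19 of the 31 members. For Tfcp2l1 that start lies inside the span of RefSeq's gene table, which begins at 118627923, so the last bases of its window are within the gene. Capitals mark matches to short promoter elements searched on both strands: a TATA box (TATAAA), a GC box (GGGCGG), and the Oct4-Sox2 composite element, an octamer core joined to a SOX core with 1 free base between them.
Tfcp2l1, chr1:118627695-118627944: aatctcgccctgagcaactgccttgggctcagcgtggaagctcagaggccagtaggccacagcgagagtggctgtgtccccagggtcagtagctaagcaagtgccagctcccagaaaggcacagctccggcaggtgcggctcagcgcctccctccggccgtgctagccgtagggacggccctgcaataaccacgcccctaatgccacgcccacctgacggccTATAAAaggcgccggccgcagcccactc
Fgf4, chr7:144861136-144861385: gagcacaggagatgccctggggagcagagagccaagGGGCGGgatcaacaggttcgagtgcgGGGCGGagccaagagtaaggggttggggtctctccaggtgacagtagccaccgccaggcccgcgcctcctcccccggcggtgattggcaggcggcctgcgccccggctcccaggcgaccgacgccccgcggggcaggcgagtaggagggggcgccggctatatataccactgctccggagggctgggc
Nanog, chr6:122707239-122707488, the first of 2 starts: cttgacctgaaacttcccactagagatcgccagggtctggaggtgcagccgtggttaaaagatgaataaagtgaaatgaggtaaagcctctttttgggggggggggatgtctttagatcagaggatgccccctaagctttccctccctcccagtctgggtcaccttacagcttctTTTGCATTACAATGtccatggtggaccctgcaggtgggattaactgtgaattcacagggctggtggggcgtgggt
The Tfcp2l1 window held the TATA box at position -28 from the start and was 65.2% G and C. The Fgf4 window held the GC box at -214 and -188 and was 71.2% G and C. The Nanog window held the composite element at -75 and was 52.0% G and C.

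Of 32851 upstream windows of the same length, 2 held the composite element as spelled here, 0.00609%, and both were windows of Nanog, in which OCT4 and SOX2 are known to bind this element. Only that spelling, the one in the Nanog window, was searched, so windows with other spellings of the element were not counted. The TATA box stood in 12.4% of windows and, among the members, in those of Nr0b1, Nr5a2, Otx2 and Tfcp2l1. The GC box stood in 32.7% of windows and in 10 of the 19 members' windows. A full octamer, ATTTGCAT, was in 1.6% of windows and in that of Zfp42. A TCF core, searched as CTTTGA, was in 13.8% of windows and in those of Lin28a, Nr0b1 and Sall1. These are matches of letters, the octamer shares letters with the composite element, and binding at them was not measured here.

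Reprogramming libraries held 10.62 to 20.21 and iPSC libraries 21.59 to 25.41 reads in genes, in units of 1e+06 reads. In the same units, the summed depth was 39.25 for DOX with 3C and UNC, 52.31 for DOX with 3C, 50.21 for DOX with UNC and 36.17 for DOX alone. The deposited reprogramming values are normalised counts, that is, read counts that the authors divided by 1 factor per library, and the reads behind them were recovered exactly, so small values below are given as reads. Levels compared across the tables are reads per 1e+06 reads in genes (RPM), set side by side without a test because the tables were normalised separately. RPM is not corrected for transcript length and is not compared between genes. Of 16 fibroblast markers, 16 had reads in every group, with sums of 6939 to 7425 RPM under DOX with 3C and UNC, 4419 to 5242 under DOX with 3C, 12300 to 12700 under DOX with UNC and 10040 to 10790 under DOX alone.

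Of the 31 members, 7 had 0 reads in all 12 reprogramming libraries. They were Dppa2, Dppa3, Dppa4 and Dppa5a, together with Tcl1, a co-activator of AKT, Prdm14, a regulator that represses differentiation and DNA methylation genes, and Otx2, a factor of the exit toward primed pluripotency and of forebrain. A count of 0 over a group allows up to 0.0764 RPM under DOX with 3C and UNC, 0.0574 under DOX with 3C, 0.0597 under DOX with UNC and 0.0829 under DOX alone (3 counts over the group's summed reads, counting error only). In the iPSC of the DMSO group the same 7 genes averaged between 12.1 ± 1.72 RPM for Dppa3 and 747 ± 49.0 RPM for Dppa5a (SD, n = 3).

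A second set of 9 members had reads, but 3 or fewer per library on average over the 12. Utf1, a chromatin-bound pluripotency factor, had 1 read in all, in a library of DOX with UNC. Esrrb, an orphan nuclear receptor of the naive network, had 3 reads, 1 in each library of DOX with 3C and none elsewhere. Lin28a, which blocks let-7 maturation, had 4 reads, and so had Nr5a2, another orphan nuclear receptor. Sall4, a zinc finger partner of OCT4, had 6 reads, all in 3C libraries. Tdgf1, the NODAL co-receptor Cripto, had 10, and Zfp42, the marker Rex1, had 15. Eras, a constitutively active RAS of embryonic stem cells, had 20, and Gbx2, a homeobox target of LIF and STAT3, had 25. In the iPSC of the DMSO group these 9 genes averaged between 20.4 RPM for Gbx2 and 1258 RPM for Tdgf1.

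Nanog, Lin28b and Nr0b1 were above that floor but had too few reads to enter the test across genes. Nanog, the homeobox gene at the centre of the network, had 5, 2 and 4 reads under DOX with 3C and UNC, 4, 4 and 3 under DOX with 3C, 7, 5 and 10 under DOX with UNC, and 2, 6 and 4 under DOX alone. All 12 libraries therefore had some Nanog reads, and the 4 groups overlapped. As mean RPM over 3 libraries, Nanog was at 0.0593% of its level in the iPSC of the DMSO group under DOX with 3C and UNC, at 0.0469% under DOX with 3C, at 0.0914% under DOX with UNC and at 0.0704% under DOX alone. Reads of the pseudogenes Nanog-ps1 and Nanog-ps2, near copies of Nanog, could have been counted to it or lost from it, and the same holds for Zfp42, Dppa3 and Tdgf1, which also have named pseudogenes.

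Lin28b, the paralogue of Lin28a, had 3, 7 and 2 reads under DOX with 3C and UNC, 6, 10 and 12 under DOX with 3C, 11, 7 and 13 under DOX with UNC, and 7, 1 and 6 under DOX alone. Nr0b1, the orphan receptor Dax1, had 3, 3 and 0 reads under DOX with 3C and UNC, 4, 7 and 1 under DOX with 3C, 9, 3 and 6 under DOX with UNC, and 4, 7 and 2 under DOX alone. Neither gene separated any treatment from its control by library.

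**Figure D1:**
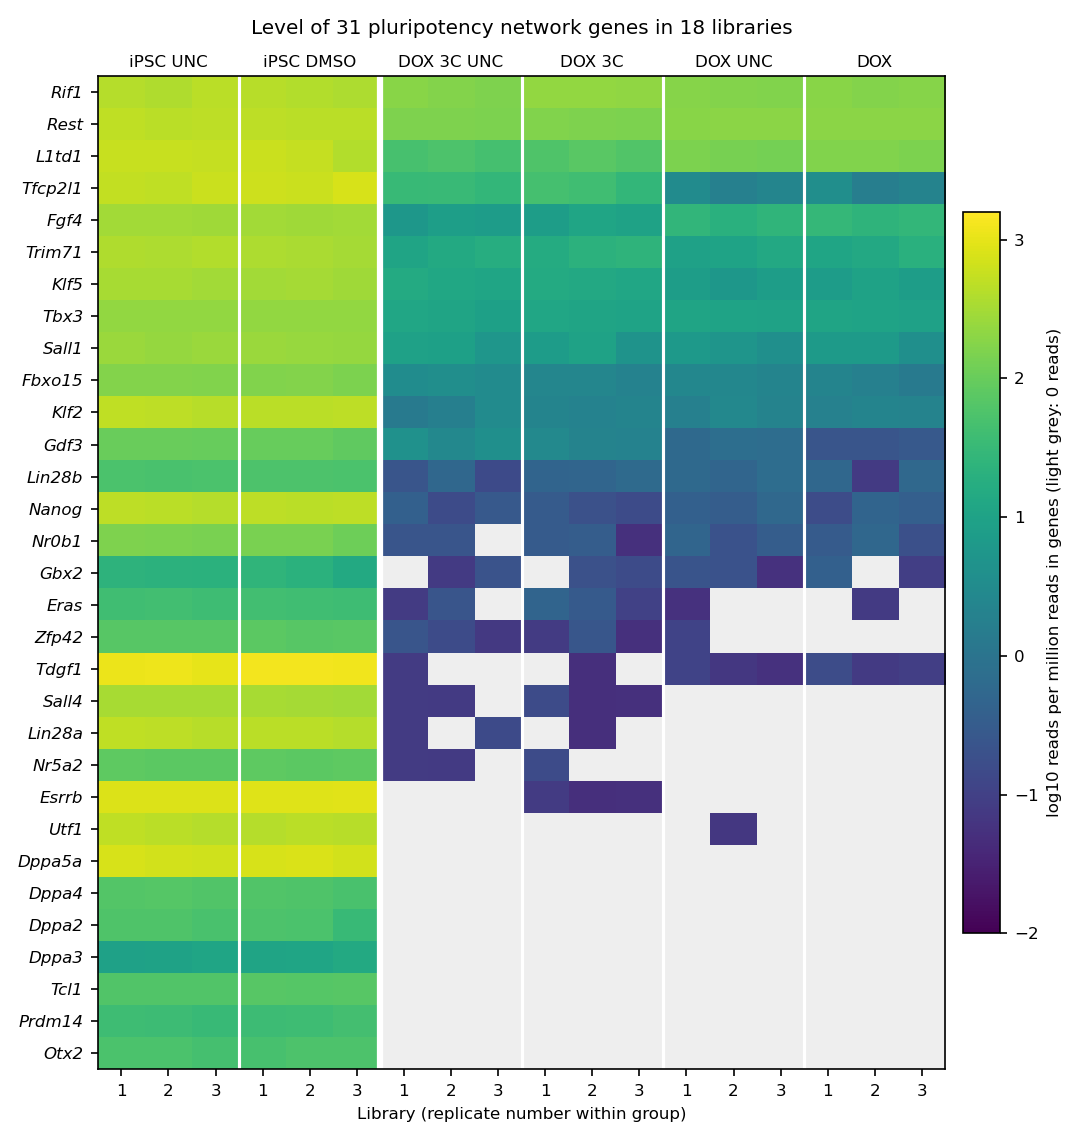
Level of each of the 31 members (rows) in each of the 18 libraries (columns, by group), as log10 of RPM; light grey marks 0 reads. All 31 rows are filled in the iPSC columns, while 7 rows are grey across all 12 reprogramming columns and 10 more have reads in some of them only.

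Among the sparse members, Eras, Zfp42 and Sall4 had more reads per depth where 3C was present, with 95% intervals of the ratio above 1. These ratios pool the groups with and without UNC. Taken separately, only that of Eras without UNC had an interval above 1, from 1.47, and with UNC it began at 0.506. The intervals of Zfp42 began at 0.997 without UNC and 0.686 with it, and those of Sall4 at 0.456 and 0.24. Lin28a, Nr5a2 and Esrrb had all their reads, 4, 4 and 3, in 3C libraries. Their pooled intervals begin below 1, at 0.623, 0.623 and 0.39. Fewer reads per depth were seen with 3C for Tdgf1, Nr0b1 and Nanog, given below, and for Gbx2 (ratio 0.741) and Lin28b (0.839). The intervals of Gbx2 and Lin28b include 1. The 1 read of Utf1 was in a library without 3C. Eras had 1, 3 and 0 reads under DOX with 3C and UNC, 6, 6 and 2 under DOX with 3C, 1, 0 and 0 under DOX with UNC, and 0, 1 and 0 under DOX alone. Per depth this was 18 reads in both 3C groups against 2 reads in both groups without it, a ratio of 8.49 with a 95% interval of 2.03 to 75.5 from counting error alone. Eras lies over Pcsk1n in the annotation, and reads of the overlap could belong to either gene.

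Zfp42 had 3, 2 and 1 reads under DOX with 3C and UNC, 1, 5 and 1 under DOX with 3C, 2, 0 and 0 under DOX with UNC, and none under DOX alone. The 13 reads with 3C against 2 without gave a ratio of 6.13, with an interval of 1.39 to 56.0. Sall4 had 1, 1 and 0 reads under DOX with 3C and UNC and 2, 1 and 1 under DOX with 3C, against none in the 6 libraries without 3C, a ratio whose 95% interval begins at 1.11. None of the 3 genes reached the threshold in edgeR run on every gene with a read, where the adjusted p for 3C without UNC was 0.0565 for Eras, 0.0951 for Zfp42 and 0.281 for Sall4. For 3C with UNC it was 0.405, 0.390 and 0.374, in the same order. Esrrb, with 1 read in each library of DOX with 3C, had 0.389 in edgeR for 3C without UNC. With limma run without the filter on low values, Eras (adjusted p = 0.0189), Esrrb (0.0196), Sall4 (0.0356) and Zfp42 (0.0430) were past the threshold for 3C without UNC. Esrrb, Sall4 and Zfp42 had 0 reads under DOX alone, so that group adds no spread to the limma fit. Whether these genes are called depends on the test.

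In the other direction, Tdgf1 had 2 reads in both 3C groups against 8 in both groups without it, a ratio of 0.236 with a 95% interval of 0.0244 to 1.18 from counting error alone. Its 1 read under DOX with 3C, against 4 under DOX alone, left every library of the first group below every library of the second, by normalised count. The ratio was 0.548 (0.289 to 1.01) for Nr0b1, with 18 reads against 31, and 0.61 (0.34 to 1.07) for Nanog, with 22 against 34. All 3 intervals include 1. Lin28b had 12 reads under DOX with 3C and UNC against 31 under DOX with UNC, a ratio of 0.495 with an interval of 0.232 to 0.992, and its libraries overlapped.

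The other 12 members had a normalised count of at least 10 in at least 3 libraries and were tested with limma on log2 of the normalised count plus 1, together with 16138 genes in all. A gene is called at a Benjamini-Hochberg adjusted p below 0.05 over all tested genes. Gdf3 passed this filter only through the groups where it was high, with 8 of 12 libraries at 10 or more. Its calls are therefore given as a description, and the counts of members that include it are not read as support. Counts of members below are of the 12 tested, not of all 31.

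Adding 3C to DOX without UNC raised 4 and lowered 3 of the 12 tested members, where 49.4% of all tested genes were called, 24.7% higher and 24.7% lower. Tfcp2l1, Klf5 and Rif1 rose, with Gdf3, which passed the filter only where it was high, and Fgf4, L1td1 and Rest fell. With UNC present in both groups, 3C raised 3 of the 12, Tfcp2l1, Gdf3 and Klf5, and lowered 3, Fgf4, L1td1 and Rest, where 47.4% of all genes were called, 23.9% higher and 23.5% lower. The median log2 fold change of the 12 was 0.27 without UNC and 0.14 with it, beside 0.015 and 0.012 over all tested genes. Both medians include Gdf3. Without it the middle value was that of Sall1, 0.26, without UNC and that of Tbx3, -0.03, with UNC. With the replicate number as a block 8 members were called in each comparison, adding Trim71 to both and Sall1 to that with UNC. Over all genes the block called 8621 without UNC and 8307 with it, against 7978 and 7656 in the main fit. In bulk RNA, fewer cells of a type and less RNA per cell cannot be told apart, for these and all results that follow.

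Among the transcription factors Tfcp2l1, which with ESRRB and KLF factors holds the naive state and lies on chromosome 1, 118627923 to 118685168, had the largest change of the 12. It had 460, 522 and 414 normalised counts under DOX with 3C and UNC, 713, 592 and 407 under DOX with 3C, 48.7, 29.6 and 37.5 under DOX with UNC, and 58.9, 26.4 and 32.2 under DOX alone. Every library with 3C was above every library without it. The log2 fold change was 3.88 ± 0.25 (SE, limma adjusted p = 5.15e-10), or 14.7-fold, for 3C without UNC, and 3.58 ± 0.25 (adjusted p = 1.59e-09) for 3C with UNC. In RPM it stood at 4.59% and 5.67% of its mean in the iPSC of the DMSO group under DOX with 3C and UNC and DOX with 3C, and at 0.368% and 0.377% under DOX with UNC and DOX alone. The RefSeq gene LOC115487679 overlaps it, and whether reads were counted by strand is not given in the sources used here.

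Klf5, a Krüppel-like factor that sustains self-renewal and also epithelial growth, had 226, 198 and 177 normalised counts under DOX with 3C and UNC, 233, 208 and 179 under DOX with 3C, 120, 91.0 and 122 under DOX with UNC, and 118, 156 and 124 under DOX alone. The 3C libraries lay above their controls in both comparisons, by log2 0.64 ± 0.15 without UNC (limma adjusted p = 0.0015) and 0.85 ± 0.15 with it (adjusted p = 0.000114). Rest, the repressor of neuronal genes outside the nervous system, had 2343, 2378 and 2278 under DOX with 3C and UNC, 2478, 2374 and 2201 under DOX with 3C, 2938, 3066 and 3073 under DOX with UNC, and 3024, 3012 and 3046 under DOX alone. It fell by 0.37 on the log2 scale without UNC (SE 0.05, adjusted p = 9.34e-06) and by 0.38 with UNC (SE 0.05, adjusted p = 7.59e-06).

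Klf2, a naive network factor downstream of MEK inhibition, and Tbx3, a T-box target of LIF signalling, were not called in any comparison of reprogramming groups. Sall1, a zinc finger relative of SALL4, was called only in some alternative fits. Klf2 ran from 19.8 to 48.6 normalised counts over the 12 libraries and Tbx3 from 136 to 178, with overlapping groups. Sall1 had 140, 139 and 81.8 under DOX with 3C and UNC, 115, 152 and 70.3 under DOX with 3C, 102, 80.0 and 60.7 under DOX with UNC, and 107, 108 and 61.5 under DOX alone. The library numbered 3 was the lowest of each group. For 3C with UNC the log2 difference in Sall1 was 0.56 ± 0.28 (limma adjusted p = 0.112), and with the replicate number as a block the adjusted p was 0.00259. It was also past the threshold without library 3 of DOX with 3C and UNC (0.0330), over a range of 0.00259 to 0.355 in 15 alternatives.

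Among the signalling genes Gdf3 and Fgf4 moved in opposite directions under 3C. Gdf3, a TGF-beta family ligand related to NODAL on chromosome 6, 122605403 to 122610087, had 61.7, 42.4 and 58.6 normalised counts under DOX with 3C and UNC, 41.5, 31.8 and 30.1 under DOX with 3C, 9.39, 12.1 and 11.6 under DOX with UNC, and 3.68, 3.60 and 4.39 under DOX alone. These 4 groups did not overlap. 3C raised it by log2 2.85 ± 0.27 without UNC (limma adjusted p = 8.95e-08) and 2.19 ± 0.27 with UNC (adjusted p = 2.43e-06). The size of the first rests on 3 reads in each library of DOX alone and ran from 2.14 to 3.13 over 15 alternatives, with an adjusted p of 2.25e-13 to 1.72e-06. In reads, 117 under DOX with 3C against 9 under DOX alone gave a ratio per depth of 8.99, with a 95% interval of 4.58 to 20.1 from counting error alone.

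Fgf4, the ligand that drives ERK signalling in embryonic stem cells and an early-known target of OCT4 and SOX2, lies on chromosome 7, 144861386 to 144865245. It had 83.9, 127 and 115 normalised counts under DOX with 3C and UNC, 117, 172 and 147 under DOX with 3C, 401, 318 and 396 under DOX with UNC, and 449, 370 and 422 under DOX alone. All 3C libraries were below all libraries without it. It fell by 1.52 on the log2 scale without UNC (SE 0.15, limma adjusted p = 2.45e-07) and by 1.78 with UNC (SE 0.15, adjusted p = 3.27e-08). In RPM it stood at 3.27% of its mean in the iPSC of the DMSO group under DOX with 3C and at 8.99% under DOX alone.

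**Figure D2:**
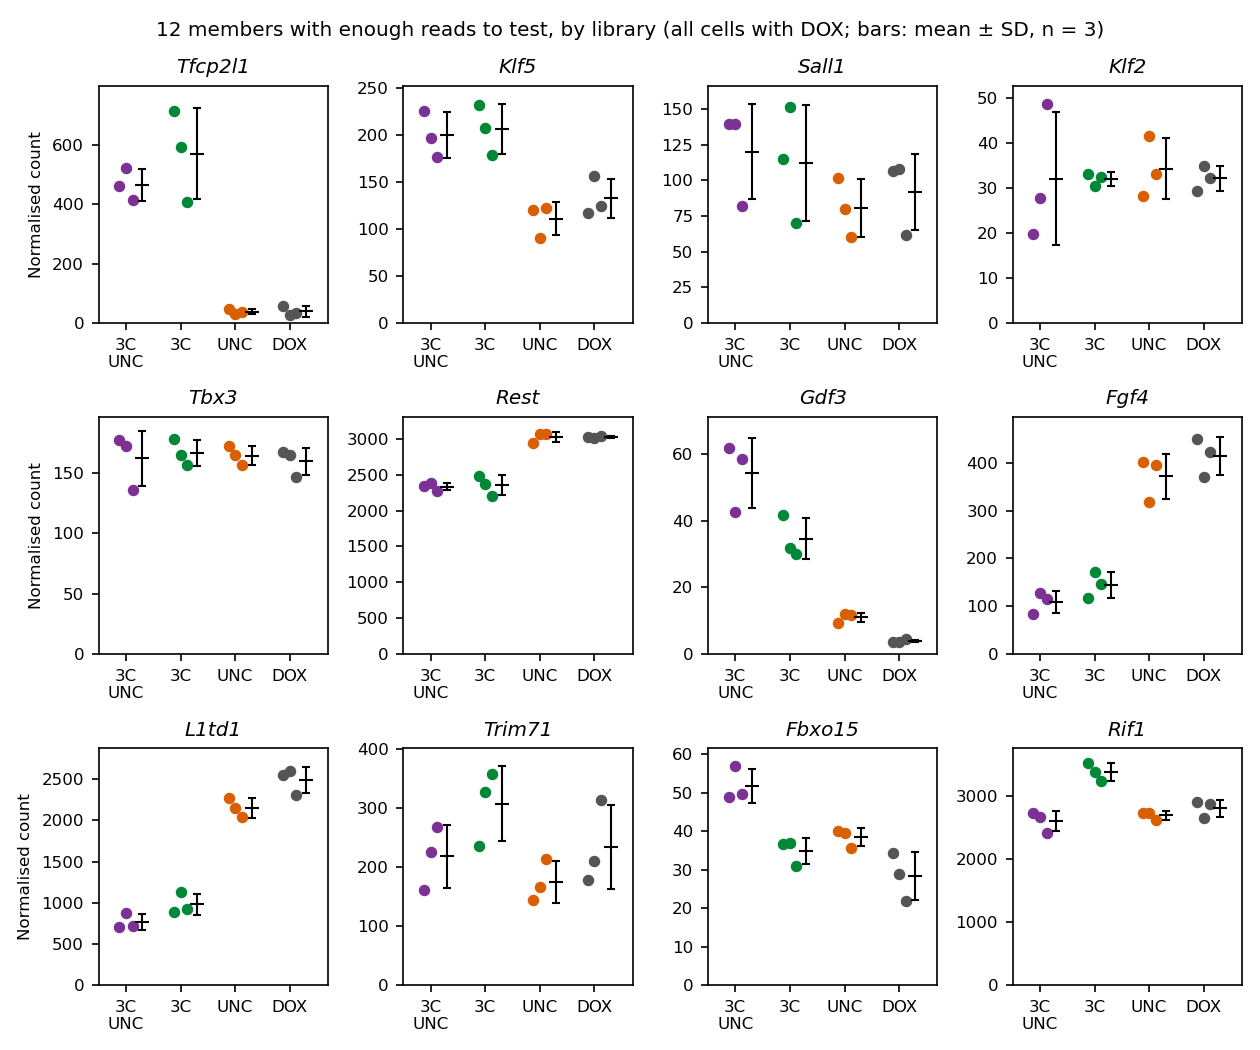
Normalised counts of the 12 tested members in the 12 reprogramming libraries; each point is 1 library, bars are the mean ± SD of 3, and groups run from DOX with 3C and UNC to DOX alone. The 3C points of Tfcp2l1, Gdf3 and Klf5 lie above, and those of Fgf4, L1td1 and Rest below, all points without 3C, while Rif1 is higher under DOX with 3C only.

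Among the RNA and protein regulators L1td1, an RNA-binding protein derived from the LINE-1 retrotransposon on chromosome 4, 98726754 to 98738486, changed most. It had 707, 878 and 720 normalised counts under DOX with 3C and UNC, 890, 1130 and 925 under DOX with 3C, 2278, 2147 and 2036 under DOX with UNC, and 2558, 2599 and 2312 under DOX alone. The 4 groups did not overlap. It fell by 1.35 on the log2 scale under 3C without UNC (SE 0.09, limma adjusted p = 1.09e-09) and by 1.49 with UNC (SE 0.09, adjusted p = 2.86e-10). In RPM its level under DOX with 3C was 12.7% of that in the iPSC of the DMSO group, and under DOX alone it was 31.2%.

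Rif1, a factor of replication timing and double-strand break repair on chromosome 2, 52072815 to 52126769, had 2719, 2655 and 2410 normalised counts under DOX with 3C and UNC, 3517, 3378 and 3237 under DOX with 3C, 2730, 2720 and 2606 under DOX with UNC, and 2891, 2640 and 2858 under DOX alone. DOX with 3C stood above the other 3 groups. 3C raised it by log2 0.27 ± 0.06 without UNC (limma adjusted p = 0.00061), and with UNC the difference was -0.05 ± 0.06 (adjusted p = 0.487).

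Trim71, a ubiquitin ligase and mRNA repressor that is a let-7 target, had 161, 225 and 269 normalised counts under DOX with 3C and UNC, 236, 328 and 359 under DOX with 3C, 144, 167 and 214 under DOX with UNC, and 178, 210 and 315 under DOX alone. Library 1 was the lowest and library 3 the highest of each group, and the groups overlapped. For 3C without UNC the log2 difference was 0.41 ± 0.21 (limma adjusted p = 0.118), with 0.00119 under the replicate block, 0.0183 without library 3 of DOX alone and 0.0372 without library 1 of DOX with 3C, over 0.000764 to 0.419 in 15 alternatives. For 3C with UNC it was 0.30 ± 0.21 (adjusted p = 0.256), with 0.0124 under the block. Fbxo15, an F-box protein gene used as an early reprogramming reporter and overlapped by Timm21, had 48.9 to 57.0 normalised counts under DOX with 3C and UNC, 30.9 to 37.0 under DOX with 3C, 35.7 to 40.1 under DOX with UNC, and 22.0 to 34.3 under DOX alone, and it was not called under 3C.

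**Figure D3:**
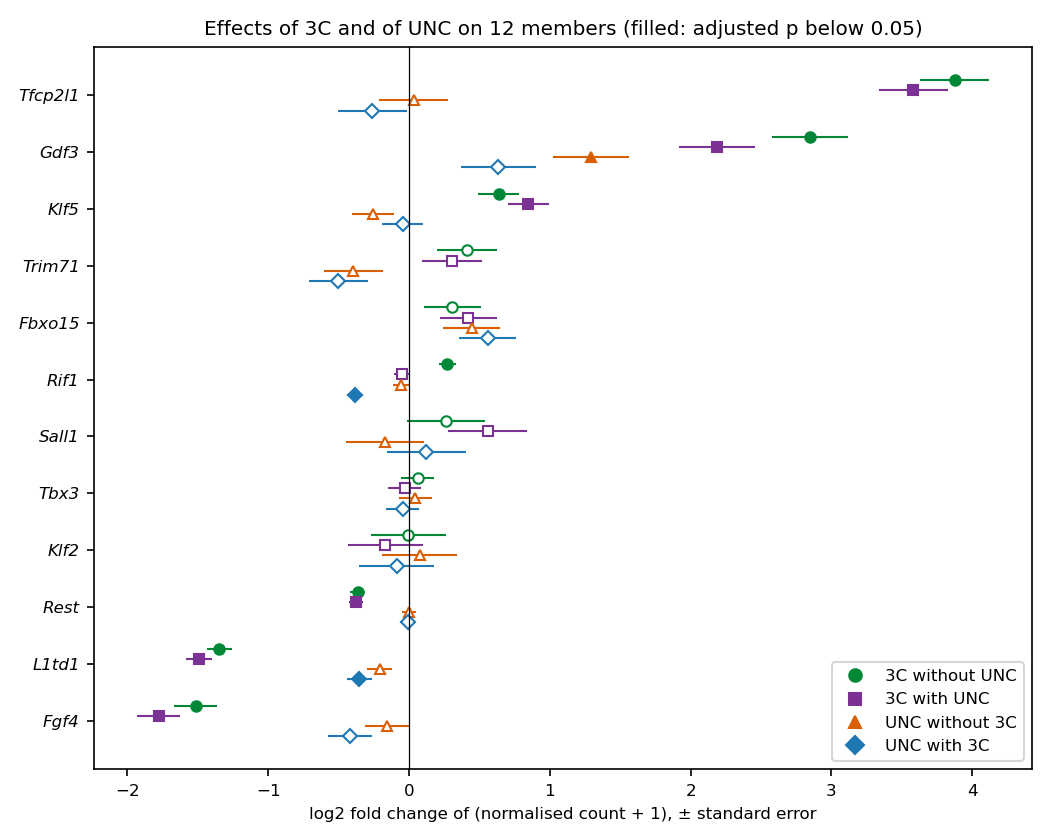
Log2 fold change ± SE of the 12 tested members for the effects of 3C (without and with UNC) and of UNC (without and with 3C), from 1 limma fit of 12 libraries; filled symbols have an adjusted p below 0.05. Tfcp2l1 and Gdf3 lie furthest right and Fgf4 and L1td1 furthest left for 3C, and the UNC symbols of these 4 genes lie nearer 0.

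The 4 factors that the DOX-inducible alleles encode also changed under 3C, all downward, whereas the members went both ways. Pou5f1 (Oct4), Sox2, Klf4 and Myc, whose reads combine endogenous and transgenic transcripts, summed to 593 to 649 RPM under DOX with 3C and UNC, 834 to 846 under DOX with 3C, 1117 to 1201 under DOX with UNC, and 1219 to 1273 under DOX alone. All 4 were called lower under 3C without UNC and under 3C with UNC. The fibroblast marker sums given above were also lower under 3C, with 2 of 16 markers called higher and 8 lower without UNC and 8 higher and 7 lower with it (Col5a1 -1.81 ± 0.06 and Twist1 1.58 ± 0.08 without UNC). The part of these shifts in the members' values was not tested.

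The sums of 5 endothelial markers were 86.0 to 123 RPM under DOX with 3C and UNC and 110 to 122 under DOX with 3C, against 164 to 187 under DOX with UNC and 160 to 182 under DOX alone, and Emcn had 0 reads under DOX with 3C. The sums of 8 epithelial markers were 76.6 to 96.2 and 61.5 to 80.8 RPM with 3C, in the same order, against 109 to 147 and 91.5 to 108. The sums and the single markers differ in direction: 6 of the 8 were tested, 3 were called higher and 2 lower under 3C in each comparison, and the median log2 fold change was 0.93 without UNC and 0.58 with it. Macrophage marker sums stayed between 6.64 and 31.2 RPM in all 12 libraries. Erythroid marker sums were below 15 RPM except in DOX with 3C, where they ran from 8.16 to 132 RPM.

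The genes that feed or surround the network were described from separate lists. Of 12 genes of LIF and Wnt signalling, 7 rose and 4 fell under 3C without UNC, and 7 rose and 3 fell under 3C with UNC. Axin2, a feedback target of beta-catenin, rose by log2 5.43 ± 0.28, Socs3, a feedback target of STAT3, by 1.61 ± 0.08, and Lifr, the LIF receptor, by 1.46 ± 0.11 without UNC (limma adjusted p = 2.58e-11, 1.74e-11 and 4.21e-09). The list's median log2 fold change was 0.49 in both comparisons. Of 15 genes of NODAL and activin signalling, 11 were tested, of which 2 rose and 2 fell under 3C without UNC. Nodal itself rose by 2.20 ± 0.36 (adjusted p = 6.50e-05), and the transducers Smad3 and Smad2 fell by 0.61 and 0.40 on the log2 scale (SE 0.07 each). With UNC, 3 rose, among them the NODAL antagonist Lefty1 (1.31 ± 0.27, adjusted p = 0.000651), and 2 fell, with a median of 0.08 beside 0.01 without UNC. Lefty1 was also called higher without UNC. That call was lost in limma without the filter (0.838, adjusted p = 0.0588), in DESeq2 (0.798, adjusted p = 0.117) and in some fits that left out a library.

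Of 26 other genes used as pluripotency markers, 18 were tested, and 6 rose and 7 fell under 3C without UNC, with the same counts with UNC and medians of -0.03 and -0.08. Upp1, a uridine phosphorylase, rose by log2 2.67 ± 0.14 (limma adjusted p = 6.50e-11), and the alkaline phosphatase gene Alpl fell by 2.51 (SE 0.18, adjusted p = 2.96e-09). Of 13 listed names around LIN28 and let-7, 11 were tested, and 1 rose and 6 fell under 3C without UNC, 2 and 7 with UNC, with medians of -0.17 and -0.20. The mRNA-binding genes Igf2bp2 and Igf2bp3 fell by 0.52 and 0.44, and the chromatin gene Hmga1 rose by 0.50 ± 0.07 without UNC.

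Of 10 genes for corepressors of REST, 2 rose and 5 fell under 3C without UNC, and 1 rose and 3 fell with UNC. Leaving out each library in turn gave 0 to 2 higher and 4 to 5 lower without UNC, and 0 to 3 higher and 2 to 5 lower with UNC. Phf21a, Hdac2 and Rcor1 fell by 0.34, 0.25 and 0.19 on the log2 scale without UNC, and the list's medians were -0.14 and -0.11. Of 14 neuronal genes known as REST targets, 5 had enough reads, and 2 rose and 2 fell under 3C in each comparison. Nefl, a neurofilament gene, rose by 3.13 ± 0.17 and Vgf, a secreted neuropeptide precursor gene, by 3.46 ± 0.53, while Stmn2 fell by 0.74 (limma adjusted p = 6.95e-11, 2.78e-05 and 2.73e-05, without UNC). The medians of the 5 were -0.07 without UNC and 0.02 with it.

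Adding UNC to DOX without 3C called 1 of the 12 tested members, Gdf3, and none of the other 11, where 0.607% of all tested genes were called, 0.508% higher and 0.0991% lower. As Gdf3 passed the filter only where it was high, nothing is read from this count. Its log2 difference was 1.29 ± 0.27 (limma adjusted p = 0.0336), with 11, 11 and 13 reads under DOX with UNC and 3 reads in each library of DOX alone. The call was not kept in 10 of 14 alternatives, over an adjusted p of 0.0134 to 0.157. It was lost without library 1, 2 or 3 of DOX alone (0.0888, 0.0732 and 0.0551) and without library 2 or 3 of DOX with UNC (0.117 and 0.148), and edgeR on the recovered reads gave 0.157. L1td1 was lower in all 3 UNC libraries than in all 3 of DOX alone but was not called (-0.21 ± 0.09, adjusted p = 0.465), and Fbxo15 was higher in all 3 (0.45 ± 0.20, adjusted p = 0.503). At an unadjusted p below 0.05, 3 of the 12 would count. With the replicate number as a block Trim71 was called as well, at -0.395 (limma adjusted p = 0.0307). The block raised the count over all genes to 409, against 98 without it.

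Adding UNC to DOX with 3C lowered 2 of the 12 tested members, Rif1 and L1td1, and raised none, where 11.6% of all tested genes were called, 7.71% higher and 3.94% lower. With the replicate number as a block 4 members were called, and the block raised the count over all genes to 2871, against 1880 without it. Rif1 fell by 0.38 on the log2 scale (SE 0.06, limma adjusted p = 0.000284), and its libraries, given above, did not overlap. L1td1 fell by 0.35 (SE 0.09, adjusted p = 0.0164), again with no overlap. That call was lost without library 2 of DOX with 3C (0.104) or without library 1 or 3 of DOX with 3C and UNC (0.0752 and 0.0805), over 6.00e-06 to 0.104 in 15 alternatives.

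The 2 members that the block added were Fgf4, at -0.42 ± 0.15 (limma adjusted p = 0.0887, and 0.0431 with the block), and Trim71, at -0.50 ± 0.21 (0.139, and 0.000903 with the block). Fgf4 was also past the threshold without library 1 of DOX with 3C (0.0299) or library 2 of DOX with 3C and UNC (0.0394), over 0.0105 to 0.342 in 15 alternatives. Gdf3 and Fbxo15 were higher in all 3 libraries of DOX with 3C and UNC than in all 3 of DOX with 3C, by 0.63 ± 0.27 (adjusted p = 0.142) and 0.56 ± 0.20 (0.082). EdgeR on the recovered reads called both (0.0378 and 0.0493), over 0.0218 to 0.332 and 0.0318 to 0.220 in 15 alternatives. Tfcp2l1 differed by -0.26 ± 0.25 (adjusted p = 0.547).

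Marker levels also moved with UNC, and whether they moved differently with and without 3C is given with the interaction below. Of the 16 fibroblast markers 13 were called higher and none lower under UNC with 3C, and 1 higher and none lower without 3C. The 4 inducible factors were all called lower under UNC with 3C and none was called without 3C. Their part in the members' values was not tested. Of the 12 LIF and Wnt genes, 5 were called higher under UNC with 3C (Socs3 by log2 0.44 ± 0.08), and none was called without 3C. That 5 was 2 without library 2 or 3 of DOX with 3C or library 1 of DOX with 3C and UNC, and 3 without library 3 of DOX with 3C and UNC, where Stat3 and Bcl3 were among those no longer called. Of the 18 other pluripotency markers, 2 were called higher and 3 lower with 3C, with Spp1, the secreted osteopontin gene, at 1.29 ± 0.12 (limma adjusted p = 3.05e-06). Leaving out each library in turn gave 2 higher and 1 to 3 lower. Without 3C the difference in Spp1 was 0.56 ± 0.12 (adjusted p = 0.0467), and it was past the threshold in none of the 6 fits that left out 1 library, with an adjusted p of 0.0669 to 0.206.

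Whether UNC acted differently with and without 3C was tested as the interaction. It called none of the 12 tested members, where 0.062% of all tested genes were called (0.0434% higher and 0.0186% lower), and 1 member had an unadjusted p below 0.05. That was Rif1, with a difference between the UNC effects of -0.32 ± 0.08 (limma adjusted p = 0.106). DESeq2 on the recovered reads gave 0.0252 for it, over 0.00914 to 0.239 in 21 alternatives. Among the lists above, the interaction called none of the 16 fibroblast markers and none of the 12 LIF and Wnt genes. Of the 4 inducible factors it called 1, Pou5f1, lower. At an unadjusted limma p below 0.05, 10 fibroblast markers, 4 LIF and Wnt genes and 4 factors would count. Leaving out each library in turn gave 0 to 4 fibroblast markers higher and 0 to 2 factors lower. The effects of UNC and of 3C share libraries in this design, and the values of each comparison are therefore set side by side without a correlation. Ehmt1 and Ehmt2, which encode the targets of UNC, summed to 386 to 394 RPM under DOX with 3C and UNC, 401 to 425 under DOX with 3C, 384 to 399 under DOX with UNC, and 379 to 415 under DOX alone.

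In the iPSC all 31 members were tested with edgeR's quasi-likelihood test, and UNC during the first 48 hours of reprogramming was followed by no called member, where 1.31% of 17987 tested genes were called, 1.27% higher and 0.0389% lower. DESeq2 also called none, and at an unadjusted p below 0.05, 5 of 31 would count. Every member had at least 9.50 RPM in each iPSC library. Nanog had 475, 460 and 426 RPM in the UNC group and 470, 463 and 487 in the DMSO group (log2 -0.05 ± 0.06, adjusted p = 0.768). Esrrb had 841, 852 and 861 in the UNC group and 885, 884 and 914 in the DMSO group (-0.06 ± 0.05, adjusted p = 0.646), a small separation of the libraries.

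The smallest p-values among the members in iPSC were those of Tdgf1 and Tfcp2l1. Tdgf1 had 1096, 1178 and 993 RPM in the UNC group and 1259, 1266 and 1250 in the DMSO group (log2 -0.20 ± 0.07, edgeR adjusted p = 0.242). Tfcp2l1 had 522, 506 and 610 in the UNC group and 650, 595 and 763 in the DMSO group (-0.28 ± 0.09, adjusted p = 0.242). The libraries of Tdgf1 did not overlap, and those of Tfcp2l1 did. Without the filter on low counts both passed the threshold, with an adjusted p of 0.0323 for Tdgf1, over 0.0323 to 0.636 in 10 alternatives, and 0.000375 for Tfcp2l1, over 0.000375 to 0.660. Tcl1, at -0.15 ± 0.05, Nr0b1, at 0.20 ± 0.08, and Dppa4, at 0.17 ± 0.08, made up the 5, with adjusted p from 0.293 to 0.406.

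Of the Dppa genes, Dppa2 varied most within a group. It had 57.5, 58.3 and 50.0 RPM in the UNC group and 55.3, 53.2 and 31.3 in the DMSO group (log2 0.26 ± 0.17, edgeR adjusted p = 0.580, over 0.0410 without the filter to 0.960 in 10 alternatives). Library 3 of the DMSO group was the lowest of the 6 for Dppa2 and for Dppa4, its neighbour on chromosome 16. It was also the lowest for L1td1, with 404 RPM against 541 to 598 in the rest of its group. The same held for other members, among them Gbx2, Nr0b1, Gdf3, Lin28a, Sall4, Sall1, Klf5, Fbxo15, Eras and Trim71. That library was the highest of the 6 for others, among them Tfcp2l1, Dppa3 and Prdm14. The median log2 fold change of the 31 was 0.04, beside -0.01 over all tested genes. Fibroblast marker sums were 3304 to 3346 RPM in the UNC group and 1855 to 2304 in the DMSO group, with 11 of 16 markers called higher. Epithelial marker sums were 848 to 870 RPM in the UNC group and 911 to 1067 in the DMSO group, with none of the 6 tested called and a median log2 fold change of -0.67. The part of both lists in the members' values was not tested.

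**Figure D4:**
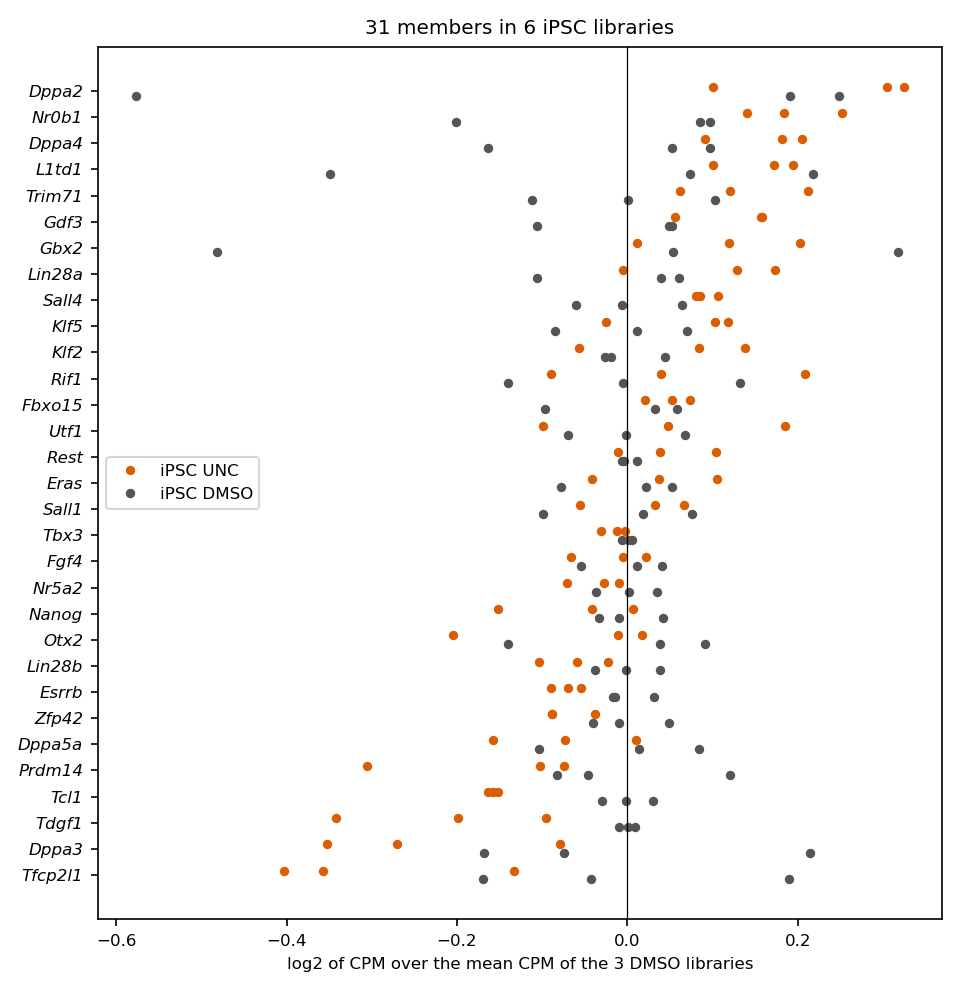
Each of the 31 members in the 6 iPSC libraries, as log2 of its RPM (CPM) over the mean of the 3 DMSO libraries; orange points are the UNC libraries and grey points the DMSO libraries. The groups overlap for most members, and the low grey points of Dppa2, Gbx2 and L1td1 are library 3 of the DMSO group.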

How the data were processed

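RNA was made into stranded total RNA libraries, per the labels' protocols. The submitters' processing notes name TopHat2 2.1.0, SAMtools 1.8, HTSeq 0.5.4p3, DESeq (version not given) and mm10, without settings. The deposited reprogramming table holds signal: read counts that the authors divided by 1 factor per library. Dividing each column by its step gave whole reads within 0.01 for 100.0% of values. The iPSC table holds raw counts as deposited by the authors. A further 2 columns of the reprogramming table could be tied to no sample listed and stayed out. Replicate numbers in the titles and descriptions of the DMSO iPSC disagreed, and the title numbers are used.

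Log2 of the reprogramming values plus a pseudocount of 1 was fitted with limma 3.58.1 (R 4.3.3), with 12 libraries in 1 fit, for genes at 10 or more in at least 3 libraries. For the iPSC counts the quasi-likelihood test of edgeR 4.0.16 with TMM scaling was used. P-values are two-sided and adjusted by Benjamini-Hochberg. Alternatives were pseudocounts of 0.5 and 5, no filter, edgeR and DESeq2 1.42.0 on recovered reads, TMM scaling, a replicate block and leaving out each library. The scripts were tested on simulated data. Intervals and floors (3 counts) cover counting error only.

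No label says what a replicate number marks. Deviations of same-numbered libraries correlated above 0.1 in every pair for UNC with 3C and for both 3C comparisons (r of 0.106 to 0.205). The numbers were therefore taken to pair the libraries there, and values with the block are given beside the main ones. The main fits themselves, with their counts, SE and adjusted p, use no block. They did not in every pair for UNC without 3C (lowest 0.094) and for the iPSC (lowest 0.071). All 12 reprogramming libraries were, by mean correlation, closest to the libraries of their own number in other groups. The block value for UNC without 3C is therefore given in the results too.

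The 31 members and the other lists were chosen with earlier results of these data known. All members are named. From other lists up to 3 called genes with the smallest p were named, and the inducible factors, Ehmt1 and Ehmt2 in addition. A gene that this rule would name is not reported here. Symbols and places come from RefSeq tables for GRCm38.p6.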

Additional observations from a re-analysis of the deposited data

How the results depend on the processing

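Of the values of members recomputed, 1232 kept their side of the threshold, 34 passed it newly, 13 no longer passed it and none reversed a call. The 1232 include values called in neither fit whose sign changed. Klf2 for 3C with UNC, at -0.169 on the log2 scale, ran from -0.508 to 0.119.

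The count of members called for UNC without 3C, 1 as reported, was 0 with a pseudocount of 5, without the filter, with edgeR, with DESeq2 (which gave Gdf3 no adjusted p) and with edgeR on every gene with a read (added after seeing the data), and 2 with the replicate block, which added Trim71 (adjusted p = 0.0307). For UNC with 3C the count of 2 was 4 with edgeR, 4 with the block, 5 with edgeR and the block and 5 with edgeR on every gene. For 3C without UNC the count of 7 was 11 without the filter. The interaction's 0 became 1 (Rif1) with DESeq2, with the block in limma (adjusted p = 0.0139) and in edgeR, and with edgeR on every gene. The iPSC count of 0 was 3 without the filter (Tfcp2l1, Tdgf1 and Dppa2) and 1 with the block (Tfcp2l1).

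Counts over all genes for UNC without 3C, 98 as reported, were 172 with DESeq2, 409 with the block, 425 with the block in edgeR and 430 with edgeR on every gene. For UNC with 3C 1880 became 2871 with the block and 3130 with the block in edgeR. The interaction's 10 became 29 with a pseudocount of 5, 156 with DESeq2, 19 with TMM, 413 with the block, 486 with the block in edgeR and 417 with edgeR on every gene. The iPSC count of 236 became 365 with DESeq2, 823 without the filter and 407 with the block. The cause of these shifts was not tested.

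Leaving out each library in turn gave 0 to 1 members and 19 to 144 genes for UNC without 3C, 1 to 3 and 1039 to 1917 for UNC with 3C, 7 to 8 and 7193 to 7356 for 3C without UNC, 6 to 7 and 6829 to 7344 for 3C with UNC, 0 to 0 and 0 to 70 for the interaction, and 0 to 0 and 85 to 216 for the iPSC. Outside edgeR on recovered reads, the block changed no member's call other than those named here and in the results. Depth limits the 19 members not tested in reprogramming, of which 7 had 0 reads.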

Other observations

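Nanog, Gdf3 and Dppa3 are neighbours on mouse chromosome 6, and their levels in the reprogramming libraries differed. Gdf3 had 3 to 53 reads per library, Nanog had 2 to 10 reads in every library, and Dppa3 had 0 reads. Of 9 genes listed in and around this stretch, 6 had enough reads to test, and 2 were called higher and 3 lower under 3C without UNC. In both 3C comparisons the genes called higher include Gdf3. It passed the filter only where it was high, so nothing is read from these counts. Apobec1, which encodes an RNA-editing cytidine deaminase, rose by log2 1.33 ± 0.12, and the glucose transporter gene Slc2a3 and the microfibril gene Mfap5 fell by 1.62 and 2.74 (limma adjusted p = 4.87e-08, 3.83e-09 and 3.38e-08). Under 3C with UNC 2 were called higher and 2 lower, under UNC with 3C 1 higher (Mfap5, 1.01 ± 0.24, adjusted p = 0.0101, and 0.0595 without library 2 of DOX with 3C), and under UNC without 3C 1 higher, which was Gdf3, with the limits given above.

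Of 9 genes of primed pluripotency, 4 had enough reads, and 2 of them fell under 3C in each comparison while none rose. Without UNC these were the de novo DNA methyltransferase gene Dnmt3a, by 0.41 on the log2 scale (SE 0.06, limma adjusted p = 7.33e-06), and the N-cadherin gene Cdh2, by 0.70 (SE 0.10, adjusted p = 8.89e-06). The list's median log2 fold changes were -0.24 without UNC and -0.43 with UNC. UNC called none of them in either comparison.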
